A study of Mus musculus with 14 samples.

Results

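The genes described here are 38 genes of glycolysis and glucose handling, chosen by function. Earlier results of these data were known when they were chosen. They cover glucose and lactate carriers, the enzymes from hexokinase to lactate dehydrogenase, entry of pyruvate into mitochondria, glycogen storage and breakdown, the first step of the pentose phosphate pathway, and regulators of these steps. All 38 were present among the 22842 genes shared by both deposited count tables, which print symbols in capitals (LDHA, LDHB, HK3, PKM). They were read in single bone marrow progenitors of the mouse, in a series that followed the progeny of endogenous adult haematopoietic stem cells in steady state by inducible lineage tracing.

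The cells lacked lineage markers (Lin-), carried the Tomato label of the tracing system (Tom+) and were sorted into 96-well plates. RNA of each cell was read at the 3′ end with a modified Smart-seq2 protocol. The 14 plates came from 5 mice: m4539 at day 3, m4533 at day 10, and m4528, m605 and m606 at day 17. One further set of cells came from a plate on which m605 and m606 were mixed, and it entered no test. The labels name no strain, age, sex or Cre driver and do not say which event starts the count of days. All groups shared the Lin- Tom+ sort, so an unlabelled control was not among them. Days 3 and 10 have 1 mouse each, and days 3 and 10 stand only in the first table, with m4528, while m605 and m606 stand in the second.

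Glycolysis turns glucose into pyruvate in the cytosol, and lactate dehydrogenase then interconverts pyruvate and lactate. Most steps are served by several genes whose enzymes differ in kinetics and in the tissues that use them, so a cell can change the make-up of the pathway without changing its length. Blood stem cells are known for low mitochondrial activity and reliance on glycolysis. Mature red cells lack mitochondria and make all their ATP by glycolysis, and neutrophils depend on glycolysis and on stored glycogen.

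Cells were kept with at least 500 genes and 10000 counts, which left 1010 of 9357 barcodes. A kept cell joined a gate when at least 3 of the 10 markers of a lineage had more than 10 counts each. No glycolysis gene was a marker. The stem gate held 299 cells, the megakaryocyte gate 125, the erythroid gate 131, the monocyte gate 126, the neutrophil gate 54 and the basophil and mast cell gate 20. No lineage was given to 253 cells, and the dendritic and stromal gates held 1 cell each. The gating rule itself fixes that each gate is high in its own marker list. The monocyte gate also carried the neutrophil markers at 3272.9 CPM summed over 10 genes (CPM is a count scaled to a total of 1000000 for its sum), and the neutrophil gate the monocyte markers at 2452 CPM. The part of this mixture in the results was not tested. The mice gave 25449441 to 64254317 counts in kept cells, and the median per cell ran between 117894 and 286917 by mouse. Cells with at least 3 of 10 cell cycle genes made up 57 of 125 in the megakaryocyte gate, 101 of 131 in the erythroid gate, 89 of 126 in the monocyte gate and 47 of 54 in the neutrophil gate, against 21 of 299 in the stem gate. Values from non-cycling cells alone came from sums of at least 5 cells.

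The heart-type lactate dehydrogenase Ldhb fell in the megakaryocyte, erythroid and basophil and mast cell gates, and the muscle-type Ldha rose in the megakaryocyte and erythroid gates. The myeloid hexokinase Hk3 fell in the megakaryocyte and erythroid gates and rose in the neutrophil gate. In the erythroid gate pyruvate kinase Pkm, Aldoc and Slc2a1 fell and Pdha1 rose. In the neutrophil gate Gpi1, Aldoa, Tpi1, Eno1 and Pkm rose, with Pygl and Slc16a1, and Aldoc and Pygm fell. In the monocyte gate Gpi1, Eno1 and G6pdx rose. Counts were summed per mouse and gate where a mouse gave at least 10 cells. For contrasts of the neutrophil and of the basophil and mast cell gates, sums of at least 5 cells were used. They were tested with edgeR's quasi-likelihood test with the mouse as a block and Benjamini-Hochberg adjustment over all genes. A change was called at an adjusted p under 0.05. Without m606 none of these calls remained.

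Between the megakaryocyte and stem gates 3 of 38 genes passed (1 higher, 2 lower), beside a background of 0.967% of 17057 genes, 0.469% higher and 0.498% lower. The median log2 change was −0.25 over the 38 genes and −0.03 over all genes, and 17 of 38 were positive. Between the erythroid and stem gates 7 of 38 passed (2 higher, 5 lower), against 6.96% of all genes, 3.39% higher and 3.57% lower. The median of the 38 was −0.37 and that of all genes 0.10. Between the monocyte and stem gates 3 of 38 passed, all higher, against 5.24% of all genes, 3.18% higher, with a median of 0.49 beside 0.14. Between the erythroid and megakaryocyte gates 2 of 38 passed, both lower, beside 3.24% of all genes, 1.85% lower. For the monocyte gate and for the erythroid gate against the megakaryocyte gate, these counts stand close to the background. DESeq2, an alternative that called more genes throughout, called 7 of 38 beside 9.99% in the megakaryocyte gate, 16 beside 18.9% in the erythroid gate, 12 beside 14.5% in the monocyte gate and 11 beside 12.0% between the erythroid and megakaryocyte gates.

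Neutrophil and basophil and mast cell sums reached 2 mice only when sums of at least 5 cells were admitted. That fit also took in 8 stem cells of m605. In it 10 of 38 genes passed between the neutrophil and stem gates, 8 higher and 2 lower, beside 5.29% of 15497 genes, 2.92% higher and 2.37% lower. Between the basophil and mast cell gate and the stem gate 1 of 38 passed, lower, beside 1.83% of all genes, 0.981% lower. That count also stands close to the background. DESeq2 called 15 beside 14.6% and 6 beside 13.7% in these contrasts. All these calls rested on few animals. With sums of at least 10 cells, only m4528 and m606 held both gates in the erythroid and monocyte contrasts with the stem gate. Within the first table alone and within the second alone none passed in any contrast, with at most 3 mice in each table. Without m606, none of the 38 passed in any of the 6 contrasts. Without m4528, 2 passed between the erythroid and stem gates and 1 between the erythroid and megakaryocyte gates, and none in the other 4. In non-cycling cells none of the 38 passed in the megakaryocyte, monocyte, neutrophil and basophil and mast cell gates, and Ldhb alone passed in both erythroid contrasts. In simulated data of this design 30% to 44% of 8-fold increases and none of the 2-fold increases were recovered, so a gene that did not pass may still differ.

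**Figure D1:**
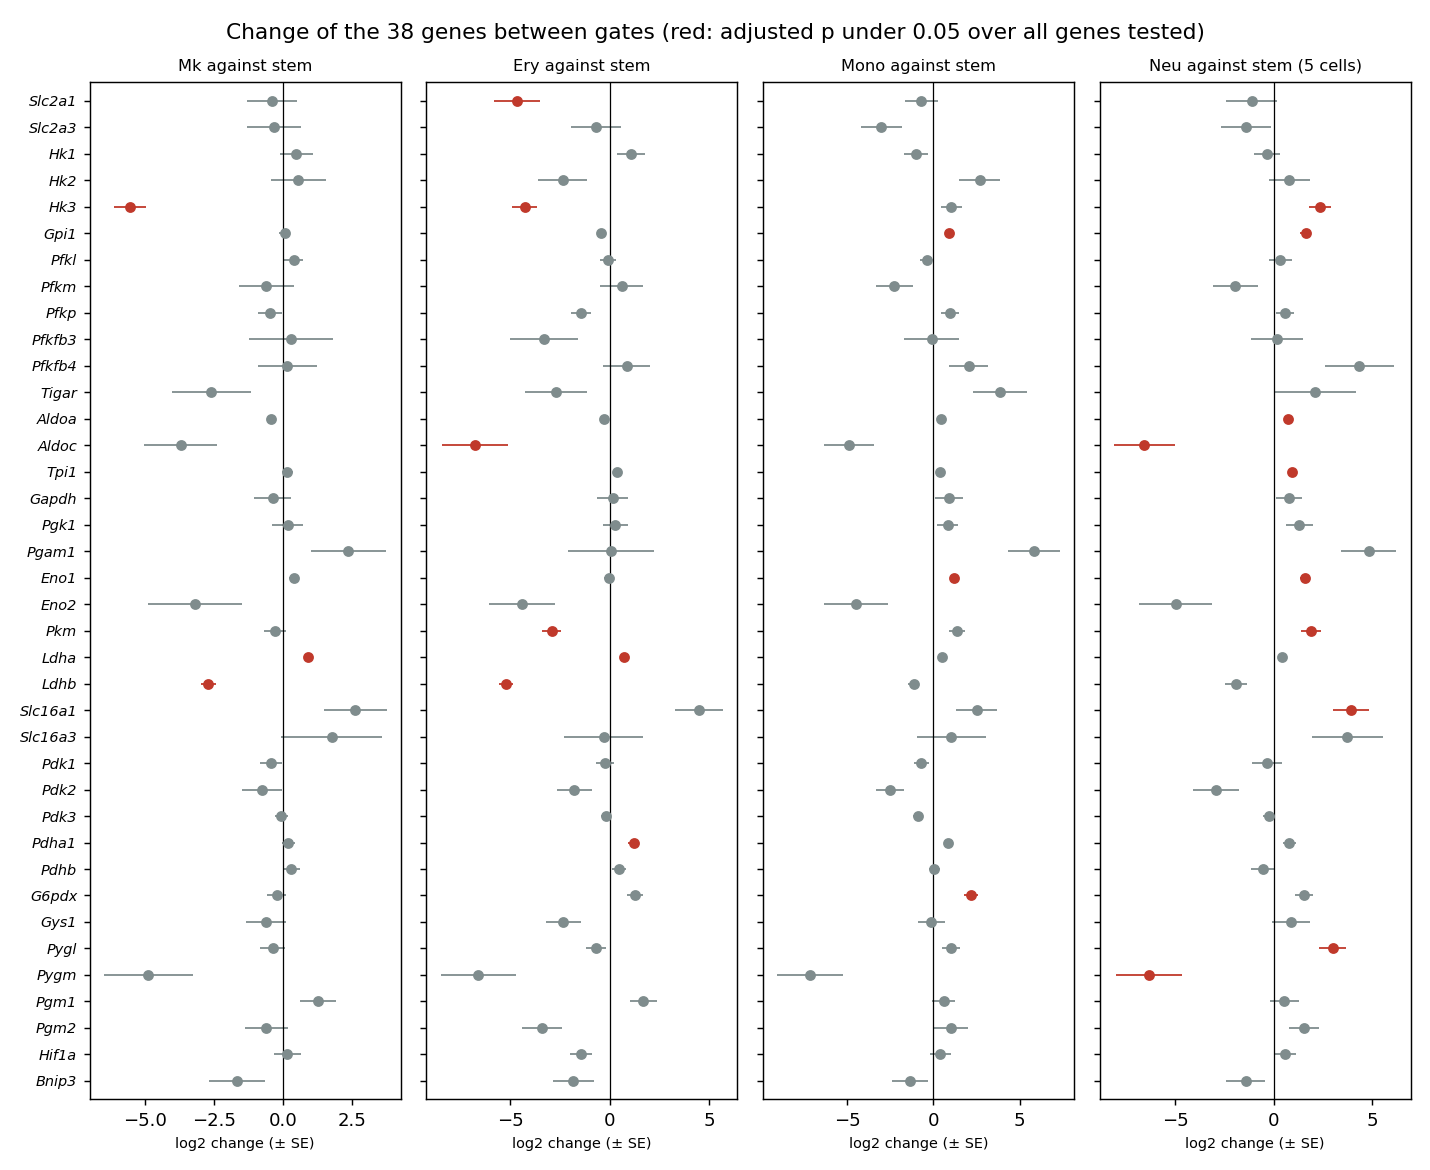
Log2 change of each of the 38 genes in the megakaryocyte, erythroid, monocyte and neutrophil gates, each against the stem gate, with bars for the standard error; red points passed an adjusted p of 0.05. The red points are few and stand in different rows in different panels, apart from Ldhb, Ldha, Hk3, Aldoc, Eno1, Gpi1 and Pkm, which are red in more than 1 panel.

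Lactate dehydrogenase is a tetramer of products of Ldha, the muscle form, and Ldhb, the heart form. Ldha lies on GRCm38 chromosome 7 from 46842274 to 46855627 and Ldhb on chromosome 6 from 142490249 to 142507957. Their promoters are shown because these genes moved in opposite directions in the same gates. The 300 bases around an annotated Ldha start, chr7:46845554-46845853 on the plus strand, and around the Ldhb start, chr6:142507908-142508207 on the minus strand, were taken from RefSeq for GRCm38.p6 and are written 5′ to 3′ along the gene. Capitals mark matches on either strand to ACGTG, the core of the hypoxia response element, joined where they overlap.
Ldha: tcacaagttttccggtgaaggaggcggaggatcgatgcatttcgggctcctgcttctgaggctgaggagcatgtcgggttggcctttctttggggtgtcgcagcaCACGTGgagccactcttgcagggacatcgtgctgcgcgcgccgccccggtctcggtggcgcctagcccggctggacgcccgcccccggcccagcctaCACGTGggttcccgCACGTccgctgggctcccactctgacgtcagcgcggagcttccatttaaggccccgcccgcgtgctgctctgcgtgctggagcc
Ldhb: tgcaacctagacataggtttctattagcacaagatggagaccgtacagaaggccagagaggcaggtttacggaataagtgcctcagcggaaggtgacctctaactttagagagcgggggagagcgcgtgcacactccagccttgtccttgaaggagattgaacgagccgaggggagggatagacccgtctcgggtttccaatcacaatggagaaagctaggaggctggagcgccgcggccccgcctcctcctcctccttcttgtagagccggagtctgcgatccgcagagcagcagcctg
The Ldha window held 5 matches in 3 runs and the Ldhb window none. The window of another Ldha start, chr7:46846832-46847131, held none either. The letters occurred in 19.62% of all 32851 promoters and in 28 of 51 promoters of the glycolysis genes, which belong to 25 of the 37 genes matched. ACGTG overlaps the E-box CACGTG, and a match is not a bound site.

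Ldha was higher in the megakaryocyte gate. It had 1030.2 CPM in m4533, 1057 in m4528, 753 in m605 and 842 in m606, against 448 CPM in m4539, 629 in m4533, 573 in m4528 and 394 in m606 in the stem gate. Every megakaryocyte sum was above every stem sum. The log2 change was 0.91 ± 0.14 (SE; edgeR adjusted p = 0.0255), and it was positive in 3 of 3 mice with both gates. Without m4533, m4528 or m606 it was 1.04, 0.94 and 0.81, with adjusted p of 0.0835, 0.205 and 0.288. Within the first table it was 0.78 and within the second 1.14, and in non-cycling cells it was 0.87 (adjusted p = 0.428).

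In the erythroid gate Ldha had 813, 624 and 703 CPM in m4528, m605 and m606. These values overlapped the highest stem sum, that of m4533. Its log2 change was 0.71 ± 0.15 (edgeR adjusted p = 0.0277). It missed the threshold with another scaling of the libraries (DESeq2's size factors in the edgeR fit; 0.55, adjusted p = 0.0629), without m4528 (0.70, adjusted p = 0.211) and without m606 (0.55, adjusted p = 0.332), and was 0.39 (adjusted p = 0.683) in non-cycling cells. In the monocyte gate Ldha ran between 435 and 763 CPM, within the stem range for 2 of 3 mice, and did not pass.

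Ldhb moved the other way, and further. Megakaryocyte sums were 68.7 CPM in m4533, 73.9 in m4528, 36.0 in m605 and 35.0 in m606, and erythroid sums 8.87, 7.59 and 6.39 in m4528, m605 and m606. Stem sums were 353 CPM in m4539, 441 in m4533, 307 in m4528 and 299.6 in m606. The 3 ranges did not overlap, with the erythroid gate lowest and the stem gate highest. On the log2 scale the change was −2.69 ± 0.27 in the megakaryocyte gate (edgeR adjusted p = 0.00925) and −5.24 ± 0.34 in the erythroid gate (adjusted p = 0.000484) against the stem gate. The erythroid gate was also below the megakaryocyte gate (−2.55 ± 0.29, adjusted p = 0.00353), in 3 of 3 mice.

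Without m606 the Ldhb changes did not pass, at −5.03 (adjusted p = 0.138) for the erythroid gate, −2.46 (0.284) for the megakaryocyte gate and −2.57 (0.143) between them. Without m4528 the erythroid change still passed (−5.42, adjusted p = 0.0165), while the megakaryocyte change (−2.97, adjusted p = 0.142) and that between both gates (−2.45, adjusted p = 0.056) did not. The megakaryocyte change also missed the threshold without m4533 (−2.68, adjusted p = 0.0583). In non-cycling cells Ldhb was lower by more in the erythroid gate (−8.37, adjusted p = 0.00276, beside 0.455% of all genes called there), also against the megakaryocyte gate (−5.05, adjusted p = 0.0425, beside 0.164%), and lower in the megakaryocyte gate without passing (−3.32, adjusted p = 0.117). Within the first table the erythroid change was −5.26 and the megakaryocyte change −2.38, and within the second they were −5.63 and −3.20.

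The monocyte gate lay between, at 163, 116 and 75.6 CPM of Ldhb in m4528, m605 and m606 (log2 change −1.14, adjusted p = 0.0669). The neutrophil gate had 138, 96.0 and 102 CPM (−1.91, edgeR adjusted p = 0.0656), and neither passed. The neutrophil fit also took in the 8 stem cells of m605, which had 992 CPM of Ldhb. In the basophil and mast cell gate Ldhb had 13.7 CPM in m4528 and 55.7 in m606, both from fewer than 10 cells, and fell by 3.46 on the log2 scale (SE 0.75, edgeR adjusted p = 0.0334). That call was lost without m4528 (−2.64, adjusted p = 0.367), without m605 (−2.94, 0.0512) and without m606 (−5.12, 0.169), and the value was −6.98 (0.112) in non-cycling cells.

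As a share of the summed Ldha and Ldhb counts, Ldhb made up 6.25, 6.53, 4.56 and 3.99% in the megakaryocyte gate of m4533, m4528, m605 and m606, and 1.08, 1.20 and 0.90% in the erythroid gate of m4528, m605 and m606. In the stem gate it made up 44.0, 41.2, 34.9 and 43.2% in m4539, m4533, m4528 and m606. The paired difference between the megakaryocyte and stem gates was −34.2 ± 5.49 percentage points (SD, n = 3 mice). Its exact sign-flip p was 0.25, the smallest that 3 mice allow. With sums of at least 5 cells 5 mice entered, and the difference was −40.1 ± 12.5 points (SD, exact sign-flip p = 0.0625, again the smallest possible). Among them was m605, whose 8 stem cells had 992 CPM of Ldhb. No share below could pass a threshold of 0.05 in this design, over 69 shares tested, and the shares are given as values. They are shares of counts, not corrected for transcript length, and serve only to compare gates.

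The split was visible in single cells. Cells were thinned to 50000 counts each, so that depth was equal, and a cell was counted with at least 5 counts. Of the cells that reached this depth, Ldhb was found in 22.0% in the megakaryocyte gate, 5.60% in the erythroid gate, 31.1% in the monocyte gate and 54.7% in the neutrophil gate, against 62.9% in the stem gate. Ldha was found in 98.4, 95.2, 93.3 and 96.2% of the same gates in that order, against 81.5% in the stem gate. At full depth, 38 of 299 stem cells had more than 10 counts of Ldhb but not of Ldha, against 0 of 125 cells in the megakaryocyte gate and 1 of 131 in the erythroid gate. Both genes passed this cut together in 29 megakaryocyte, 11 erythroid and 143 stem cells. The median counts per cell were 121037 in the stem, 161119 in the megakaryocyte and 225274 in the erythroid gate, so stem cells reach this cut less readily. These single cells were pooled over mice and are not replicates.

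**Figure D2:**
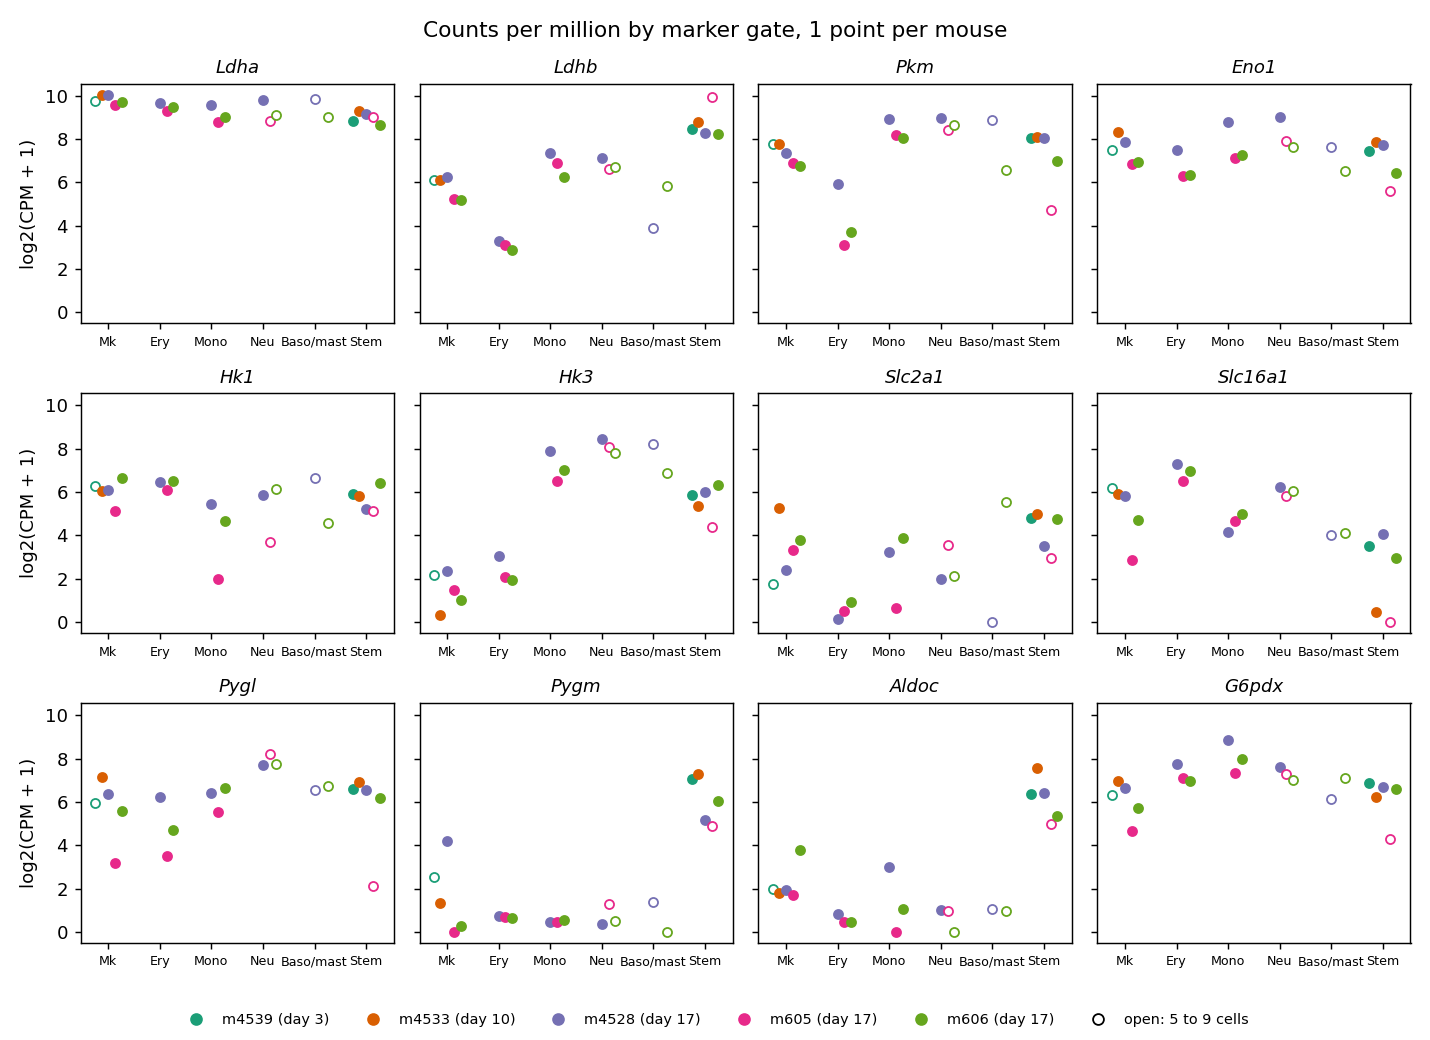
Level of 12 genes as log2(CPM + 1) in 6 gates, 1 point per mouse; filled points are sums of at least 10 cells and open points sums of 5 to 9 cells. Ldhb steps down from the stem gate to the megakaryocyte and the erythroid gate, while Ldha is highest in the megakaryocyte gate, and Hk3 is high in the monocyte and neutrophil gates and low in the megakaryocyte and erythroid gates.

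Hexokinases trap glucose in the cell by phosphorylating it. Hk1 is the widely used form, Hk2 the inducible one, and Hk3 is known from myeloid cells. Hk3, on chromosome 13 from 55005985 to 55021475, passed the test downward in some gates and upward in another, and its promoter, chr13:55021336-55021635 on the minus strand (GRCm38.p6, RefSeq), is shown for that reason. Capitals mark a match on either strand to GAGGAA, the form of an ETS site preferred by the myeloid factor PU.1. Other forms of ETS sites were not searched for and are not marked.
Hk3: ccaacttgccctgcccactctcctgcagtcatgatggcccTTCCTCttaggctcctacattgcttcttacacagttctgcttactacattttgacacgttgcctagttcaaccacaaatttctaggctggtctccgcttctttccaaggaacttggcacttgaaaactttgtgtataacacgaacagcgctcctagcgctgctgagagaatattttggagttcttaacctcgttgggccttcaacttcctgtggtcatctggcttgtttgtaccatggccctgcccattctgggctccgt
The window held 1 match, as did 28.28% of all promoters at least once, and 16 of 51 promoters of the glycolysis genes.

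Hk3 had 0.27 CPM in m4533, 4.14 in m4528, 1.80 in m605 and 1.05 in m606 in the megakaryocyte gate, and 7.21, 3.22 and 2.87 CPM in m4528, m605 and m606 in the erythroid gate. In the stem gate it had 56.7, 39.4, 62.7 and 80.3 CPM in m4539, m4533, m4528 and m606. All megakaryocyte and erythroid sums lay below all stem sums. In the edgeR fit the log2 change was −5.52 ± 0.59 in the megakaryocyte gate (edgeR adjusted p = 0.0110) and −4.27 ± 0.63 in the erythroid gate (adjusted p = 0.00622). Without m4528 they were −6.41 (adjusted p = 0.142) and −5.10 (0.0666), and without m606 −5.21 (0.284) and −3.98 (0.21). In non-cycling cells they were −5.27 (0.119) and −3.41 (0.219).

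The monocyte and neutrophil gates had more Hk3 than the stem gate. In the basophil and mast cell gate Hk3 had 295 CPM in m4528 and 115 in m606, each from fewer than 10 cells, without passing. The 3 such cells of m605 had 2.20 CPM. Monocyte sums were 239.6, 91.1 and 129.5 CPM and neutrophil sums 354, 272 and 219.7 CPM in m4528, m605 and m606, all above the highest stem sum. The neutrophil change was 2.37 ± 0.55 on the log2 scale (edgeR adjusted p = 0.0223), in 3 of 3 mice. For m605 the pair used its 8 stem cells, which had 20.1 CPM of Hk3 from 12 counts. The call was lost without m4528, m605 or m606, at 2.38, 1.94 and 2.94 with adjusted p of 0.22, 0.15 and 0.205, and the value was 0.53 (adjusted p = 0.908) in non-cycling cells. The monocyte change did not pass, although its 3 sums lay above all stem sums. After thinning, cells with Hk3 made up 0 of 123 in the megakaryocyte gate, 0.80% in the erythroid gate, 47.1% in the monocyte gate and 79.2% in the neutrophil gate, against 12.9% in the stem gate.

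Hk1 did not pass in any contrast. It ran between 33.7 and 99.8 CPM in the megakaryocyte gate and between 68.1 and 89.2 CPM in the erythroid gate, against 36.4 to 84.0 CPM in the stem gate. In the monocyte gate it had 43.0, 2.93 and 24.1 CPM in m4528, m605 and m606, the last 2 below the stem range. Of the counts of Hk1, Hk2 and Hk3, Hk1 held 89.2% in the megakaryocyte gate against 46.6% in the stem gate of the same 3 mice (difference 42.6 ± 1.91 points, SD; exact p = 0.25, the smallest possible). In the erythroid gate Hk1 held 93.7%, against 40.9% in the stem gate of the 2 mice with both. In the monocyte gate Hk3 held 72.7%, against 52.0% in the stem gate of the same 2 mice, and Hk1 13.3%, against 40.9%. Hk2 reached 22.4, 41.7 and 40.3 CPM in the monocyte gate, against at most 9.78 CPM in the stem gate, a log2 change of 2.68 ± 1.18 that did not pass (edgeR adjusted p = 0.25).

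**Figure D3:**
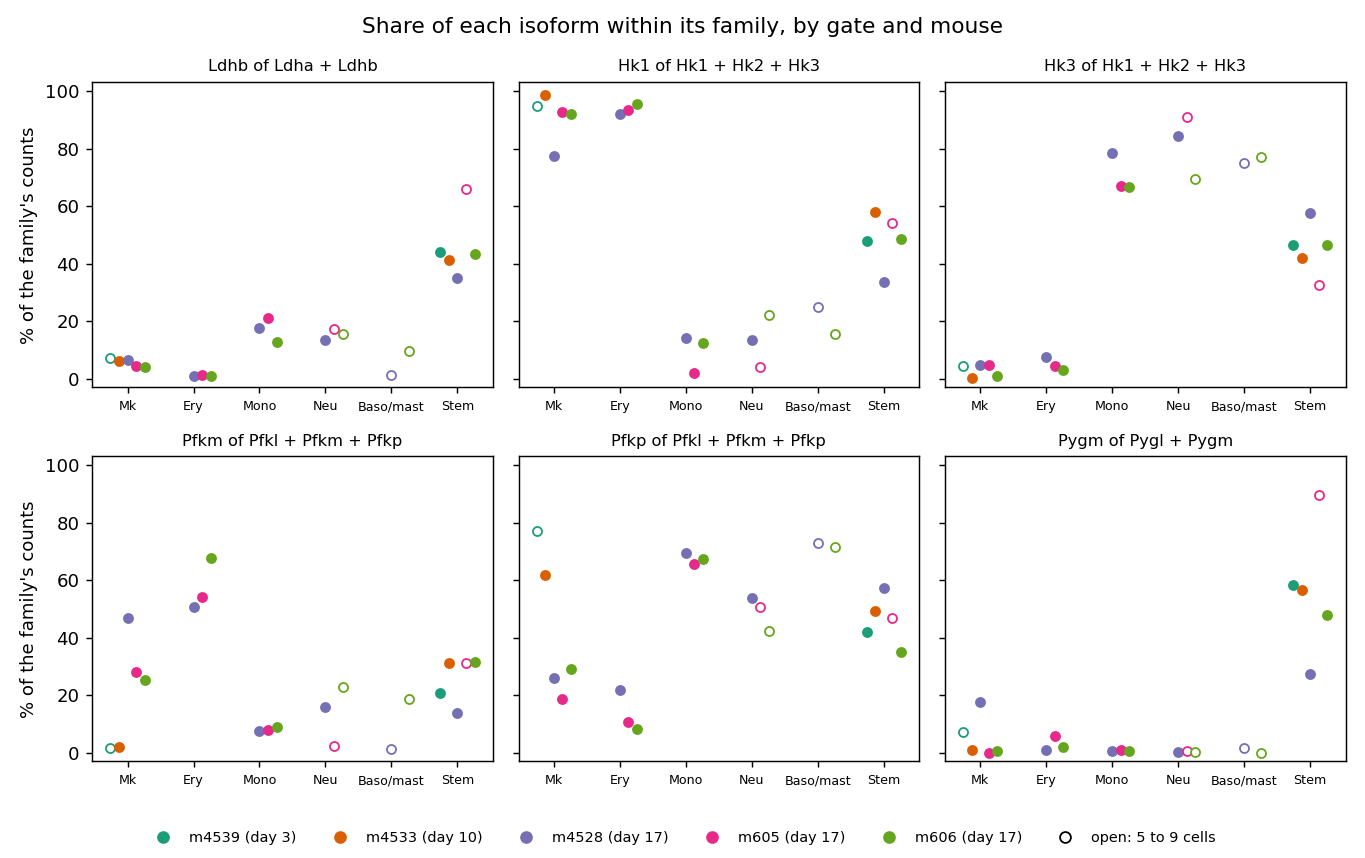
Share of the counts of each enzyme family, in percent, held by Ldhb, Hk1, Hk3, Pfkm, Pfkp and Pygm in each gate, 1 point per mouse. Ldhb and Pygm take a large share in the stem gate and little in the megakaryocyte and erythroid gates, and the Hk1 share is above the Hk3 share in those 2 gates.

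The next enzymes lead to the split of the sugar into 3-carbon units. Gpi1 makes fructose 6-phosphate, phosphofructokinase commits it, aldolase splits it and Tpi1 interconverts the products. Gpi1 was 308, 222 and 281 CPM in the monocyte gate and 471, 488 and 749 CPM in the neutrophil gate of m4528, m605 and m606. In the stem gate it was 170.1, 128, 194 and 195 CPM in m4539, m4533, m4528 and m606. Every monocyte and neutrophil sum lay above every stem sum. The log2 change was 0.93 ± 0.22 in the monocyte gate (edgeR adjusted p = 0.0435) and 1.62 ± 0.26 in the neutrophil gate (adjusted p = 0.00246).

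The monocyte call of Gpi1 missed the threshold without m4533, m4528, m605 or m606 (0.76 to 0.99, adjusted p 0.1 to 0.42), with DESeq2's size factors in the edgeR fit (0.77, 0.117) and in non-cycling cells (0.10, 0.968). The neutrophil call of Gpi1 was lost without m4528 (1.73, adjusted p = 0.0582) and without m606 (1.50, 0.168), and the value was 0.39 in non-cycling cells (0.851).

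Phosphofructokinase subunits come from Pfkl, the liver form, Pfkm, the muscle form, and Pfkp, the platelet form. None passed in any contrast with the stem gate. Pfkm stood at 136, 78.2 and 125 CPM in the erythroid gate and at 14, 12.3 and 13.6 CPM in the monocyte gate of m4528, m605 and m606, against 53.5, 92.5, 32.6 and 69.0 CPM in the stem gate. All monocyte sums lay below all stem sums, while the erythroid sums overlapped them. Pfkp stood at 58.9, 15.3 and 14.9 CPM in the erythroid gate and 131, 102 and 102 CPM in the monocyte gate, against 109, 147, 135 and 76.3 CPM in the stem gate. As a share of all 3 subunits, Pfkm made up 59.2% in the erythroid gate against 22.7% in the stem gate of the same 2 mice, a difference of 36.5 ± 0.27 points (SD; exact p = 0.5, the smallest possible). Pfkp made up 68.3% in the monocyte gate and 15% in the erythroid gate, against 46.1% in the stem gate. In the megakaryocyte gate, the lineage of platelets, Pfkp ran between 21.1 and 184 CPM and overlapped the stem gate. Pfkfb3 and Pfkfb4, whose products set the level of the activator of phosphofructokinase, did not pass in any contrast. Pfkfb3 ran between 0.63 and 1.20 CPM in the erythroid gate, below its stem range of 2.32 to 30.4 CPM (log2 change −3.32, edgeR adjusted p = 0.29). Pfkfb4 stayed at or below 24.5 CPM in the megakaryocyte, erythroid, monocyte and stem gates.

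Aldoa is the aldolase of muscle and red cells and Aldoc that of brain. Aldoc was found mainly in the stem gate. It had 0.78, 0.36 and 0.37 CPM in the erythroid gate of m4528, m605 and m606, against 81.4, 188, 84.0 and 40.4 CPM in the stem gate of m4539, m4533, m4528 and m606. The groups did not overlap, with a log2 change of −6.80 ± 1.65 (edgeR adjusted p = 0.0415). Without m4533, m4528, m605 or m606 in turn, the value ran between −7.36 and −6.08 and adjusted p between 0.0605 and 0.248. The neutrophil gate had 1.03, 0.98 and 0 CPM (−6.55 ± 1.54, adjusted p = 0.0238), and this call was lost without m4528 (−6.69, 0.164), m605 (−7.39, 0.0623) or m606 (−5.77, 0.228). With 2 counts in m605 and 0 in m606, its size depends on the prior count. In non-cycling cells the adjusted p was 0.117 in the erythroid and 0.517 in the neutrophil gate, both with lower Aldoc. Megakaryocyte sums of Aldoc, at 2.25 to 12.6 CPM, also lay below all stem sums but did not pass (−3.70, adjusted p = 0.230).

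Aldoa carried nearly all aldolase counts in each gate. It had 1340.1, 1117 and 1108 CPM in the neutrophil gate of m4528, m605 and m606, against 844, 1239, 1133 and 653 CPM in the stem gate and 583 CPM in the 8 stem cells of m605. The groups overlapped, and the change within mice was 0.71 ± 0.14 on the log2 scale (edgeR adjusted p = 0.0108). It was lost without m4528 (0.89, adjusted p = 0.0518), m605 (0.65, 0.0957) or m606 (0.75, 0.251), and in non-cycling cells the sign turned (−0.11, 0.93).

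Tpi1 had 592, 469 and 591 CPM in the neutrophil gate, against 227, 350.4, 388 and 327 CPM in the stem gate. The neutrophil sums lay above the stem sums, and the log2 change was 0.94 ± 0.21 (edgeR adjusted p = 0.0192), lost without m4528 (1.04, 0.12), m605 (0.89, 0.0561) or m606 (1.01, 0.259), and 0.83 (0.549) in non-cycling cells.

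Gapdh, Pgk1 and Pgam1 serve the middle of the pathway, and textbook levels of their transcripts are high. In these tables their rows held at most 7.66, 19.5 and 12.3 CPM in any gate and mouse. All have many near-identical copies in the mouse genome, and reads can be split or dropped between copies, so their values are uncertain. None passed in any contrast.

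Enolase is encoded by Eno1, the general form, and Eno2, the neuronal form. Eno1 was higher in the myeloid gates, with 445, 138 and 153 CPM in the monocyte gate and 523, 237 and 197 CPM in the neutrophil gate of m4528, m605 and m606. The stem gate had 173, 232, 208 and 84.4 CPM in m4539, m4533, m4528 and m606. The groups overlapped across mice, but within each mouse both myeloid gates were above the stem gate. Its log2 change was 1.18 ± 0.21 in the monocyte gate (edgeR adjusted p = 0.0137) and 1.62 ± 0.25 in the neutrophil gate (adjusted p = 0.0022).

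The monocyte call of Eno1 was lost without m4533 (1.11, adjusted p = 0.058), m4528 (0.94, 0.327) or m606 (1.17, 0.231), and the neutrophil call without m4528 (1.67, 0.0918) or m606 (1.86, 0.11). In non-cycling cells the values were 1.02 (0.438) and 0.96 (0.587) in these gates. Eno2 stayed under 1 CPM in the megakaryocyte, erythroid and monocyte gates, against 9.06, 0.22, 19.9 and 6.35 CPM in the stem gate of m4539, m4533, m4528 and m606, without passing.

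Pyruvate kinase makes the last ATP of glycolysis. Pkm, on chromosome 9 from 59656576 to 59679372, encodes the M1 and M2 forms by alternative splicing, which these counts per gene do not separate. Pkm was lowest in the erythroid gate, with 59.7, 7.68 and 11.9 CPM in m4528, m605 and m606. It had 216, 163, 116 and 108 CPM in the megakaryocyte gate of m4533, m4528, m605 and m606, and 265, 273, 263 and 127 CPM in the stem gate of m4539, m4533, m4528 and m606. The erythroid sums lay below all of these. The 8 stem cells of m605, too few for this fit, had 25.1 CPM, below the erythroid sum of m4528. The log2 change of Pkm was −2.93 ± 0.46 against the stem gate (edgeR adjusted p = 0.00803) and −2.65 ± 0.44 against the megakaryocyte gate (adjusted p = 0.0159).

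Without m606, neither Pkm change passed (−2.74, adjusted p = 0.199, and −2.45, 0.273), and without m605 the change against the megakaryocyte gate did not (−2.15, 0.0818). In non-cycling cells the change was −2.02 (0.312) against the stem gate and −2.01 (0.497) against the megakaryocyte gate. Pkm was found in 7.20% of thinned erythroid cells, against 61.5% of stem cells and 57.7% of megakaryocyte cells.

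The other pyruvate kinase gene, Pklr, which encodes the liver and red cell forms, is not one of the 38 genes. It had 105, 85.4 and 77.4 CPM in the erythroid gate and at most 0.45 CPM in the stem gate (log2 change 7.08 ± 1.28, edgeR adjusted p = 0.0139). Against the megakaryocyte gate, with at most 3.15 CPM, the change was 6.41 ± 0.93 (adjusted p = 0.00873). With at most 3 counts in each stem sum, the first size depends on the prior count. Against the stem gate the Pklr call was lost without m4528 (6.10, 0.211) and m606 (6.78, 0.282), and against the megakaryocyte gate without m4528 (6.17, 0.122), m605 (6.99, 0.0539) and m606 (6.14, 0.246). In non-cycling cells the Pklr values were 0.19 (adjusted p = 1) and −0.81 (0.964). In the neutrophil gate Pkm had 496, 340.2 and 398 CPM and rose by 1.90 ± 0.50 on the log2 scale (edgeR adjusted p = 0.0405). That value leans on the 8 stem cells of m605, which had 25.1 CPM: without m605 it was 1.55 (adjusted p = 0.0953). The call was also lost without m4539 (1.93, 0.051), m4528 (2.20, 0.107) and m606 (2.02, 0.288), and the value was 0.42 (0.893) in non-cycling cells.

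Glucose enters blood cells through facilitative carriers, here Slc2a1 (GLUT1) and Slc2a3 (GLUT3). Slc2a1 had 0.11, 0.45 and 0.93 CPM in the erythroid gate of m4528, m605 and m606, against 27.0, 30.7, 10.3 and 25.9 CPM in the stem gate of m4539, m4533, m4528 and m606. The groups did not overlap. In the edgeR fit the log2 change was −4.67 ± 1.14 (edgeR adjusted p = 0.0423), and since m4528 had fewer than 3 erythroid counts, its size depends on the prior count. It was lost without m4533 (−4.92, 0.0607), m4528 (−4.20, 0.228) or m606 (−4.68, 0.345), and did not pass in non-cycling cells (adjusted p = 0.242). Slc2a3 had 27.5, 18.6 and 11.3 CPM in the erythroid gate, against 35.5, 50.8, 50.5 and 102 CPM in the stem gate, and 1.22, 1.37 and 17 CPM in the monocyte gate. It did not pass, although erythroid and monocyte sums lay below all tested stem sums. The 8 stem cells of m605, too few for this fit, had 15.1 CPM of Slc2a3, and with them this order did not hold.

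Lactate and other monocarboxylates cross the membrane through Slc16a1 (MCT1) and Slc16a3 (MCT4). Slc16a1 had 156, 89.3 and 126 CPM in the erythroid gate and 74.9, 54.7 and 64.7 CPM in the neutrophil gate of m4528, m605 and m606. It was scarce in the stem gate, with 10.3, 0.37, 15.5 and 6.81 CPM in m4539, m4533, m4528 and m606 and 0 in the 8 stem cells of m605. The ranges did not overlap. The neutrophil change of 3.93 ± 0.92 on the log2 scale passed (edgeR adjusted p = 0.0237), and the erythroid change of 4.51 ± 1.21 did not (adjusted p = 0.0582). The neutrophil call was lost without m4528 (5.06, 0.0988), m605 (3.35, 0.116) or m606 (4.22, 0.269), and the value was 2.61 (0.594) in non-cycling cells. Slc16a3 stayed at or below 12.3 CPM in all gates and mice.

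Basigin (Bsg) and embigin (Emb) are partner proteins that carry these lactate carriers to the cell surface, and are not among the 38 genes. Bsg had 851, 658 and 823 CPM in the erythroid gate, against 317, 433, 394 and 382 CPM in the stem gate, without overlap (log2 change 1.19, edgeR adjusted p = 0.00539). Emb had 66, 12.9 and 19.5 CPM in the erythroid gate and 1903, 1171 and 1558 CPM in the monocyte gate, against 147, 85.3, 256 and 184 CPM in the stem gate. Emb thus fell in the erythroid gate (−2.54, adjusted p = 0.00994) and rose in the monocyte gate (3.61, adjusted p = 0.00345). Without m606 these Emb calls were lost (−2.17, 0.235, and 3.81, 0.118), as was that of Bsg (1.16, 0.178), which was also lost without m4528 (1.12, 0.109) and was 0.20 (0.888) in non-cycling cells. Txnip, which restrains glucose uptake, was at 63.5, 19.9 and 119 CPM in the monocyte gate, against 674, 912, 1188 and 526 CPM in the stem gate (−3.28, adjusted p = 0.0116), and it also fell in the neutrophil gate (−2.88, adjusted p = 0.0081). The monocyte call of Txnip was lost without m4528 (−3.01, 0.193), and the neutrophil call without m4528 (−2.83, 0.114) and m606 (−2.58, 0.0597).

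Pyruvate dehydrogenase admits pyruvate to the mitochondrial cycle, and Pdk1, Pdk2 and Pdk3 encode kinases that switch it off. Pdha1, the catalytic alpha subunit, had 333, 236 and 293 CPM in the erythroid gate of m4528, m605 and m606, against 231, 322, 137 and 153 CPM in the stem gate of m4539, m4533, m4528 and m606. The groups overlapped through m4533, and within m4528 and m606 the erythroid gate was higher (log2 change 1.20 ± 0.26, edgeR adjusted p = 0.0282). The call was lost without m4528 (1.04, 0.2), m605 (1.16, 0.0584) or m606 (1.33, 0.276), and the value was 0.91 (0.468) in non-cycling cells. The beta subunit Pdhb and the 3 kinases did not pass in any contrast. In the monocyte gate, each kinase had all its sums below all tested stem sums, without passing. The monocyte sums came from day 17 mice alone, while the stem sums also came from earlier days. The 8 stem cells of m605, too few for this fit, had 23.5, 0 and 106 CPM of Pdk1, Pdk2 and Pdk3. With them the order did not hold for any of these kinases. The share of all genes with such an order was not computed. Pdk1 ran between 27.5 and 57.1 CPM there, against 75.3 to 128 CPM in the stem gate (log2 change −0.69, edgeR adjusted p = 0.42). Pdk2 ran between 1.17 and 7.66 CPM, against 17.1 to 45.9 CPM (−2.50, 0.126), and Pdk3 between 40.8 and 127 CPM, against 148 to 259.6 CPM (−0.88, 0.0989). Of the 9 other genes of pyruvate entry tested, edgeR called 0 in the megakaryocyte, erythroid and monocyte gates. There 0, 1 and 1 had an unadjusted p under 0.05, and DESeq2 called 0, 1 and 0.

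Glycogen is broken down by phosphorylases, Pygl of liver and Pygm of muscle. Pygm had 1.5, 17.6, 0 and 0.21 CPM in the megakaryocyte gate of m4533, m4528, m605 and m606, and at most 0.67 CPM in the erythroid and monocyte gates. In the stem gate it had 134, 154, 35.2 and 64.9 CPM in m4539, m4533, m4528 and m606. The megakaryocyte, erythroid and monocyte sums lay below all stem sums, but the log2 changes of −4.86, −6.62 and −7.12 did not pass (edgeR adjusted p = 0.193, 0.0715 and 0.0688). The neutrophil gate, at 0.28, 1.48 and 0.43 CPM, did (−6.32 ± 1.67, adjusted p = 0.0405). Without m4539, m4533, m4528, m605 or m606 in turn, that value ran between −8.11 and −5.09 and adjusted p between 0.0505 and 0.319. With 1 to 3 counts in each neutrophil sum its size depends on the prior count, and it did not pass in non-cycling cells (adjusted p = 0.515). After thinning, 1.63% of megakaryocyte cells and none in the erythroid and monocyte gates held Pygm, against 19.6% of stem cells.

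Pygl rose in the neutrophil gate, with 210.1, 295 and 212 CPM in m4528, m605 and m606, against 95.2, 119, 94.2 and 70.8 CPM in the stem gate and 3.35 CPM in the 8 stem cells of m605. The groups did not overlap, and the log2 change was 2.99 ± 0.70 (edgeR adjusted p = 0.0230). Without m605 it was 1.60 (adjusted p = 0.0967), without m4528 3.76 (0.0801), without m606 3.80 (0.206) and in non-cycling cells 1.51 (0.622). Pygm made up 6.37% of phosphorylase counts in the megakaryocyte gate against 43.8% in the stem gate of 3 mice, and 1.52% in the erythroid gate and 0.46% in the monocyte gate against 37.5% in the stem gate of 2 mice. The glycogen synthase gene Gys1 and the phosphoglucomutase rows Pgm1 and Pgm2 did not pass. The symbols Pgm1 and Pgm2 were exchanged in mouse nomenclature, and which enzyme each row measures cannot be told from the tables. Pgm2 was at 13.1, 0.89 and 2.87 CPM in the erythroid gate, below its stem range of 37.8 to 82.3 CPM (−3.42, adjusted p = 0.0740).

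G6pdx, on the X chromosome from 74409483 to 74428880, opens the pentose phosphate pathway, which yields NADPH. It had 465, 158 and 248 CPM in the monocyte gate of m4528, m605 and m606, against 116, 73.2, 101 and 96.7 CPM in the stem gate of m4539, m4533, m4528 and m606. The groups did not overlap, and the log2 change was 2.21 ± 0.40 (edgeR adjusted p = 0.0160). The call was lost without m4528 (1.97, adjusted p = 0.278) or m606 (2.64, 0.172), and in non-cycling cells (1.76, 0.559). The erythroid gate, with 214, 135 and 123 CPM, and the neutrophil gate, with 196, 155 and 129 CPM, also lay above the stem gate and did not pass (edgeR adjusted p = 0.0979 and 0.0631). Tigar, whose product diverts sugar to this pathway, was at 67.0, 22.4 and 23.0 CPM in the monocyte gate, against 5.77, 0.15, 0.49 and 20.9 CPM in the stem gate, and did not pass.

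Of the 9 other pentose phosphate genes tested, transaldolase (Taldo1) was called in several gates. It had 946, 793 and 850.1 CPM in the erythroid gate and 1124, 564 and 729 CPM in the monocyte gate, against 192, 303, 462 and 390.3 CPM in the stem gate. The log2 change was 1.24 (edgeR adjusted p = 0.00439), 1.27 (0.00369) and, in the neutrophil gate, 1.47 (0.00359). Pgls was higher in the monocyte gate (2.11, 0.0205) and Tkt in the neutrophil gate (1.84, 0.0321). Without m4528 or m606 all these calls were lost, with adjusted p between 0.0666 and 0.255, and that of Tkt also without m605 (1.56, 0.2). Taldo1 was also called higher in the basophil and mast cell gate. That call was lost without m4528 (1.67, edgeR adjusted p = 0.264) and m606 (1.65, 0.275). In non-cycling cells Taldo1 was 0.70 (0.464) in the erythroid and 1.13 (0.208) in the monocyte gate, and turned to −0.34 in the neutrophil gate, where it did not pass. In the megakaryocyte gate edgeR called 0 of the 9, 3 had an unadjusted p under 0.05, and DESeq2 called 2.

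Hif1a, the oxygen-regulated factor that drives glycolytic genes, was at 15.6, 14.1 and 15.6 CPM in the erythroid gate, against 72.3, 54.7, 32.3 and 56.7 CPM in the stem gate. It did not pass, although all erythroid sums lay below all stem sums. Bnip3, one of its targets that acts in mitophagy, was at 16.3 to 48.7 CPM in the stem gate and did not pass. Of 18 other hypoxia genes tested, 0 passed in the megakaryocyte gate in edgeR, where 3 had an unadjusted p under 0.05 and DESeq2 called 4, and 1 rose in the erythroid and 1 in the monocyte gate. Those were Ankrd37 (adjusted p = 0.0401) and the cytokine gene Mif (log2 change 1.55, 0.0346). Ankrd37 had 9.76, 33.1 and 3.98 CPM in the erythroid gate of m4528, m605 and m606, against 5.93, 0.07, 0 and 0.45 CPM in the stem gate of m4539, m4533, m4528 and m606. The groups overlapped, the erythroid counts came mostly from 1 to 3 cells a mouse, and with 0 or 1 count in 3 stem sums no fold is given. Both calls were lost without m4533, m4528, m605 or m606 (adjusted p 0.0675 to 0.271 for Ankrd37 and 0.0512 to 0.285 for Mif in the monocyte gate). Mif was also called higher in the neutrophil gate. That call was lost without m4528 (1.28, edgeR adjusted p = 0.259), m605 (1.43, 0.140) or m606 (1.56, 0.288).

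The remaining lists gave few calls. Of 9 other isozyme genes tested, Pklr passed in the erythroid gate, and Ldhd, which encodes the dehydrogenase for D-lactate, fell in the megakaryocyte gate (−5.61, edgeR adjusted p = 0.0480), the monocyte gate (−5.64, 0.0283) and the neutrophil gate (−6.70, 0.0187). Ldhd was at 0.35, 1.04, 0 and 0.63 CPM in the megakaryocyte gate, against 31.7, 94.4, 29.5 and 10.9 CPM in the stem gate. Those stem sums rested on few cells: 6 of 129, 4 of 46, 3 of 71 and 1 of 30 had more than 10 counts. Without m4528, m605 or m606 these 3 Ldhd calls were lost (adjusted p 0.0637 to 0.288), and the megakaryocyte call also without m4533 (−4.55, 0.135). Ldhd was also called lower in the basophil and mast cell gate. That call was lost without m4528, m605 or m606 (edgeR adjusted p 0.0593 to 0.512). Of 11 other glycogen genes tested, edgeR called 0 in each contrast with the stem gate. Unadjusted p was under 0.05 for 4 in the erythroid and 4 in the neutrophil gate, where DESeq2 called 1 and 3, and for at most 1 in the other gates, where DESeq2 called 0. Between the neutrophil and monocyte gates none of the 38 genes passed with edgeR (0.226% of all genes did), 5 had an unadjusted p under 0.05, and DESeq2 called Gpi1 (1.06, adjusted p = 0.0245) beside 2.40% of all genes.

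Across days, Ldhb, Aldoc and Pygm had their lowest sums at day 17 when all kept cells of a mouse were summed, in all 3 mice of that day. They were not alone in this: Slc2a1, Slc2a3, Pdk1, Pdk2, Pdk3, Pfkl, Pfkp and Hif1a had the same order. Others, among them Gpi1, Tpi1, Hk2 and Hk3, had all day 17 sums above both earlier sums. The share of all genes with either order was not computed. Ldhb was 327 CPM at day 3, 265 at day 10, and 156, 77.9 and 68.3 at day 17 in m4528, m605 and m606. Pygm was 114 CPM at day 3, 66.4 at day 10, and 9.60, 10.1 and 6.87 at day 17. Aldoc was 59.8 CPM at day 3, 73.8 at day 10, and 16.7, 8.09 and 6.77 at day 17. The stem gate made up 129 of 190 kept cells at day 3, 46 of 107 at day 10 and 71 of 288, 8 of 143 and 30 of 189 at day 17, so the mix of gates moved with the day.

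No slope passed. With the table as a term, 0 of 38 genes and 0 of all 16740 genes (0%) passed in edgeR for all kept cells, and 7 of the 38 had an unadjusted p under 0.05. Pygm changed by −3.44 per 14 days (unadjusted p = 0.0130, adjusted p = 0.411, both from edgeR's fit over all genes) and was the only one of the 38 called by DESeq2 (−3.57, adjusted p = 0.000538, beside 2.77% of all genes). Only 1 mouse stood at each of days 3 and 10, and in simulated data this fit recovered none of the 8-fold changes. Within the stem gate 0 of 37 genes tested passed (0% of all genes) and 0 had an unadjusted p under 0.05 in edgeR, and DESeq2 called 0 beside 0.104% of all genes. There Ldhb was 353 CPM at day 3, 441 at day 10 and 307 and 299.6 at day 17, and Aldoc 81.4, 188, and 84.0 and 40.4. The 8 stem cells of m605 at day 17, too few for this fit, had 992 CPM of Ldhb, 30.2 of Aldoc and 28.5 of Pygm. Pygm was 134 CPM at day 3, 154 at day 10 and 35.2 and 64.9 at day 17 in the stem gate, so both of its day 17 sums were below the earlier ones there too (slope −1.86 per 14 days, edgeR adjusted p = 1).

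**Figure D4:**
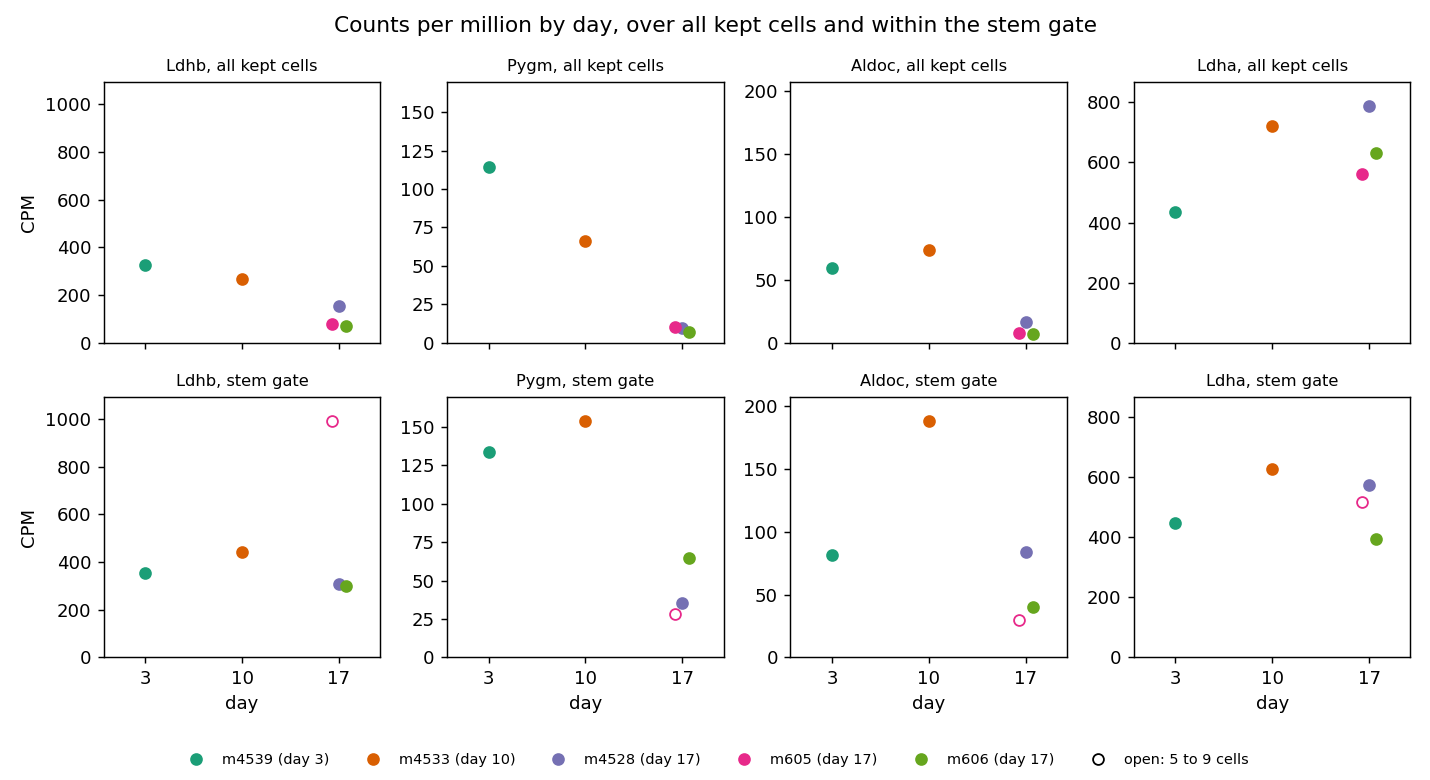
Level of Ldhb, Pygm, Aldoc and Ldha in CPM at days 3, 10 and 17 in all kept cells (top) and in the stem gate (bottom), 1 point per mouse. Over all cells Ldhb is highest at day 3 and lowest at day 17, while in the stem gate its day 17 sums lie at 307 and 299.6 CPM, near the 353 CPM of day 3.

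Whether the difference between the megakaryocyte and stem gates changed between day 17 and day 10 was tested by an interaction, which 0 of the 38 genes passed in edgeR (0% of 15452 genes). Pfkm (4.63) and Slc16a1 (−5.45) had an unadjusted p under 0.05, and DESeq2 called Pfkm (4.67, adjusted p = 0.0112, beside 3.85% of all genes). Cycling cells were set against other cells of the same mouse and gate. None of 35 genes tested passed in edgeR (0% of 11633 genes), the lowest adjusted p was 0.741, and Ldhb (1.30) and Tigar (2.80) had an unadjusted p under 0.05. DESeq2 called 239 genes there (2.05%) and 0 of the 35. Ldha was 0.55 ± 0.26 higher on the log2 scale in cycling cells without passing (edgeR adjusted p = 0.849).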

How the data were processed

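Counts per gene for each well barcode of 14 plates, as deposited by the authors in 2 tables, were the starting values. They were whole numbers of reads or tags, not normalized. The submitters' processing notes name the build GRCm38. An aligner, a counting program or the use of molecular identifiers was not given in the sources used here. Intervals and floors therefore cover counting error only. All 96 well barcodes recur between plates, since they mark wells.

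Barcodes with at least 500 genes and 10000 counts were kept, gated by markers as described above and summed per mouse and gate where a mouse gave at least 10 cells. A barcode past several gates went to that with most markers, and a tie to none. CPM are counts scaled to a total of 1000000 per sum. At 10 cells only 1 mouse had neutrophil sums and none had basophil and mast cell sums, so contrasts of those gates come from an alternative with at least 5 cells. Sums of all gates were fitted together in edgeR 4.0.16 (R 4.3.3) with TMM factors, its expression filter and the mouse as a block, because the gates of a mouse come from the same animal. Slopes over days are per 14 days and carry the table as a term. Shares within an enzyme family were compared by a two-sided exact sign-flip permutation test over mice. Alternatives used DESeq2 1.42.0, limma 3.58.1 (log2 of CPM + 1), RLE factors, other gates and filters, and each mouse left out. A further 3 alternatives were added after the data were seen: non-cycling cells only, without the day 3 and day 10 mice, and shares at 5 cells.

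On simulated counts the edgeR fit recovered 12, 18 and 14% of 4-fold increases and 30, 44 and 42% of 8-fold increases in the megakaryocyte, erythroid and monocyte contrasts, and called no unchanged gene. All 38 genes were named, with values in every mouse for those called and for the isoform families, and of other pathway lists the called genes, at most 3 per list and contrast. The genes and lists were chosen with earlier results of these data known. Fbp2, Pgam2, Ldhc, Gbe1 and Adm, from those lists, had no row in both tables. Promoters came from RefSeq on GRCm38.p6, from 250 bases before to 50 after each start.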

Additional observations from a re-analysis of the deposited data

Results flagged for a closer look

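Among 76 sets of 4 mice compared (38 genes in the megakaryocyte and the stem gate), 6 had a mouse whose gap to the nearest other mouse was large beside the whole range of the set. Chance gives this in about 1 in 20 sets. In the megakaryocyte gate m606 stood above the others for Aldoc, at 12.6 CPM against 2.25 to 2.85 CPM, and for Gapdh, at 4.40 CPM. In the same gate m4528 stood above the others for Pygm, at 17.6 CPM against 0 to 1.5 CPM, and for Pfkfb4, at 15.4 CPM. In the stem gate m606 stood below the others for Pkm, at 127 CPM against 263 to 273 CPM, and for Bnip3, at 16.3 CPM against 45.2 to 48.7 CPM. Among these stem sums m606 alone came from the second table. Over all kept cells Pkm was 132.7 CPM in m605 and 133.3 in m606, against 234 to 331 CPM in the mice of the first table. Bnip3 was 8.84 and 9.51 CPM, against 25.1 to 45.7 CPM. The part of the table in these flags was not tested.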

How the results depend on the processing

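Of 472 alternative values of the called genes, 276 stayed past the threshold, 195 kept their direction without passing and 1 reversed, Aldoa between the neutrophil and stem gates in non-cycling cells (−0.11). The cause was not tested; non-cycling sums held fewer cells and mice. All 104 alternatives of 12 shares (Ldhb, Hk3, Pygm and Aldoc in 3 gates) kept their direction. DESeq2 called more of the 38 genes: 7 instead of 3 (megakaryocyte against stem), 16 instead of 7 (erythroid against stem), 12 instead of 3 (monocyte against stem), 11 instead of 2 (erythroid against megakaryocyte), 6 instead of 1 (basophil and mast cell against stem), and 1 instead of 0 for the day slope over all cells, for the interaction with day 17 and for neutrophil against monocyte. Over all genes it called 1704 instead of 165, 3227 instead of 1188, 2471 instead of 894 and 2055 instead of 552 in the first 4 contrasts, 2270 instead of 820 for neutrophil and 2123 instead of 283 for basophil and mast cell against stem, and 372 instead of 35 for neutrophil against monocyte. Its calls split into 1117 higher and 1354 lower in the monocyte gate, against 542 and 352 in edgeR, and into 809 and 1461 in the neutrophil gate, against 453 and 367. RLE factors moved the median of all genes to −0.04 in the erythroid gate, against 0.10 with TMM, and to 0.00 in the monocyte gate, against 0.14.

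Within either table alone 0 of the 38 passed in each of the 6 contrasts. In non-cycling cells 0 passed in the megakaryocyte, monocyte, neutrophil and basophil and mast cell gates, and 1 (Ldhb) in each erythroid contrast. Without the day 3 and day 10 mice 1 passed in the megakaryocyte and 1 in the monocyte gate. limma with cells weighted equally gave 5 for megakaryocyte, 6 for monocyte, 5 for basophil and mast cell and 1 for neutrophil against monocyte. In the monocyte gate 2 of 10 markers, 4 of 10 markers and sums of 5 cells each gave 5. With 4 of 10 markers the neutrophil count was 6 and the basophil and mast cell count 0, which was also 0 at 50 CPM per marker. Leaving out each mouse gave 0 to 3 (megakaryocyte), 0 to 7 (erythroid), 0 to 3 (monocyte), 0 to 3 (erythroid against megakaryocyte), 0 to 9 (neutrophil) and 0 to 1 (basophil and mast cell). Without the replicate block that pairs gates of a mouse, 2, 7, 4, 1 and 7 passed for megakaryocyte, erythroid, monocyte, erythroid against megakaryocyte and neutrophil. For cycling, sums of 5 cells gave 206 genes instead of 0, with none of the 38 among them. Depth limited Slc2a1 in the erythroid gate, where the sum of m4528 (0.11 CPM) lay below the floor that 3 counts set (0.33 CPM).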

Other observations

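The plate on which m605 and m606 were mixed entered no test. There Ldha had 823 CPM in the megakaryocyte gate and 604 in the erythroid gate, against 468 in the stem gate. Ldhb had 34.1 CPM in the megakaryocyte gate, 15.4 in the erythroid gate, 65.3 in the monocyte gate and 153 in the neutrophil gate, against 215 in the stem gate. Hk3 had 1.26 CPM in the megakaryocyte gate, 4.82 in the erythroid gate, 153 in the monocyte gate and 269 in the neutrophil gate, against 55.0 in the stem gate. Pkm had 9.42 CPM in the erythroid gate, against 183 in the stem gate. Pklr, the other pyruvate kinase gene, had 57.4 CPM in the erythroid gate and 0 in the stem gate. Slc2a1 was at 1.38 CPM in the erythroid gate and 2.90 in the stem gate, and Aldoc at 5.79 CPM in the stem gate, below the stem sums of the mice on their own plates. These cells come from 2 of the tested mice and are not further animals.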
